A study of Mus musculus with 2 samples.

Results

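The caudal ganglionic eminence genes Nr2f1, Nr2f2, Nr2f6, Prox1, Npas1, Htr3a and Calb2, 7 in all, are described here by the accessible regions at their loci in embryonic mouse striatum. The study profiled open chromatin in single nuclei of wild-type striatum at E14.5, from mice of C57BL/6J and CD1 background, in 2 libraries of 1 group. In the assay a transposase cuts accessible DNA inside nuclei, each of which carries its own droplet barcode. No other genotype, stage, treatment or tissue is in the design, and the labels do not say whether the libraries came from separate embryos. The deposited result is 1 list of 87174 peaks, regions called accessible, with positions but no counts, scores, nuclei or library names. A locus was the RefSeq span of a gene with 50 kb on each side, and every peak overlapping it by at least 1 bp was taken, which gave 75 peaks at the 7 loci. Nr2f1 and Nr2f2 were also viewed with 500 kb on each side. Depth is unknown and the libraries cannot be separated, so values carry no error and no test between samples could be made. A peak found in few nuclei and a peak found in many cannot be told apart.

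The caudal ganglionic eminence is the hindmost of the 3 ventral swellings of the embryonic telencephalon and supplies the cortex, hippocampus and amygdala with a group of inhibitory neurons. Nr2f1 and Nr2f2 encode COUP-TFI and COUP-TFII, orphan nuclear receptors that bind repeats of the half-site AGGTCA and are strong in caudal parts of the forebrain, and Nr2f6 encodes a related receptor with wider expression. Prox1 encodes a prospero-type homeodomain factor needed by neurons of caudal origin, and Npas1 encodes a bHLH-PAS transcription factor. Htr3a encodes a subunit of the serotonin-gated ion channel and Calb2 encodes the calcium-binding protein calretinin, both used as markers of these neurons when mature. Several of the genes also act elsewhere, for example Nr2f2 in veins and Prox1 in lymphatic vessels, liver and dentate gyrus. The peak list does not name nuclei, so which cells gave a peak was not tested.

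The sequence just before the outermost listed start lay under a peak at Nr2f1, Prox1, Nr2f6 and Npas1 and under none at Nr2f2. For Nr2f2 only 1 start is listed, so this does not show that the gene lacks an open start elsewhere. RefSeq promoter entries of assembly GRCm38.p6, the assembly behind mm10, were found for 5 of the 7 genes, all on the minus strand, and none was matched for Htr3a and Calb2. The 250 bases before the start, without the start itself, are shown for the 3 genes with the broadest gene-end peaks, as examples of open starts. They are also shown for Nr2f2 as the contrast. The windows are chr13:78198874-78199123 for Nr2f1, chr1:190170828-190171077 for Prox1, chr8:71381968-71382202 for Nr2f6 (cut where the gene span begins) and chr7:70366747-70366996 for Nr2f2, each printed 5′ to 3′ on the minus strand. Capitals mark matches on either strand to the GC box GGGCGG, the box CCAAT, the TATA box TATAAA and the E-box CAGCTG.
Nr2f1: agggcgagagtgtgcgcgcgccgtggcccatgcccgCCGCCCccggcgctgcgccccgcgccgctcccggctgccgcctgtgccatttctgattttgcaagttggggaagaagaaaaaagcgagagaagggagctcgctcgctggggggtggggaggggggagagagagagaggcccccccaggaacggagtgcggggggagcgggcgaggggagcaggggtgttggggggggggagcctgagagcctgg
Prox1: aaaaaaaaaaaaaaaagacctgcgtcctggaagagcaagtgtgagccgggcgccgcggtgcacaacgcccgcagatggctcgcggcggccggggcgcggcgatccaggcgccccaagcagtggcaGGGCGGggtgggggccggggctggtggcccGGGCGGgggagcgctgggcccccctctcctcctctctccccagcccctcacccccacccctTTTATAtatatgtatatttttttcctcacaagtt
Nr2f6: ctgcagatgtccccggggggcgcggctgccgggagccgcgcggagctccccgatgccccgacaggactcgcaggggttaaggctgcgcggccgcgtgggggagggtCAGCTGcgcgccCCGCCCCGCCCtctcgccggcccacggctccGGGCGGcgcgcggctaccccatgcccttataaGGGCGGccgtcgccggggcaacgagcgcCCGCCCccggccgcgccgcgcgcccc
Nr2f2: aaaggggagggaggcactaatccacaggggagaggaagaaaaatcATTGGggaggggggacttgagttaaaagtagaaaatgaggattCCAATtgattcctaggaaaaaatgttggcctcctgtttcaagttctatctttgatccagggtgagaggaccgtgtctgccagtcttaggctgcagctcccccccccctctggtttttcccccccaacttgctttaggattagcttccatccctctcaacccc

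Thus 4 of the 5 windows before the outermost listed start overlapped a peak. Over all 21263 windows before listed starts of protein-coding genes, inner starts included, 64.1% overlapped a peak. The windows before the inner starts of Nr2f1 and Prox1, given below, also did. The Nr2f1 and Prox1 windows were under peaks in all 250 bases, as was that of Nr2f6, and 245 bases of the Npas1 window were. The nearest peak to the Nr2f2 window ended 56 bp away, inside the gene. The Nr2f2 window held 1 CpG dinucleotide and 50% G and C. By comparison, the Nr2f6 window held 42 CpG and 82.4% G and C, the Nr2f1 window 22 CpG, the Prox1 window 20 and the Npas1 window 14. Windows under a peak had a median of 16 CpG (quartiles 10 and 23) and windows under none a median of 2 (quartiles 1 and 4), so each of these 5 windows had a CpG number nearer to the median of its own group. The inner start listed for Nr2f1, 2424 bp into the gene, went the other way: its window held 2 CpG and lay under a peak in 220 of 250 bases. The inner start of Prox1, 1312 bp into the gene, had 11 CpG and lay wholly under a peak.

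**Figure D1:**
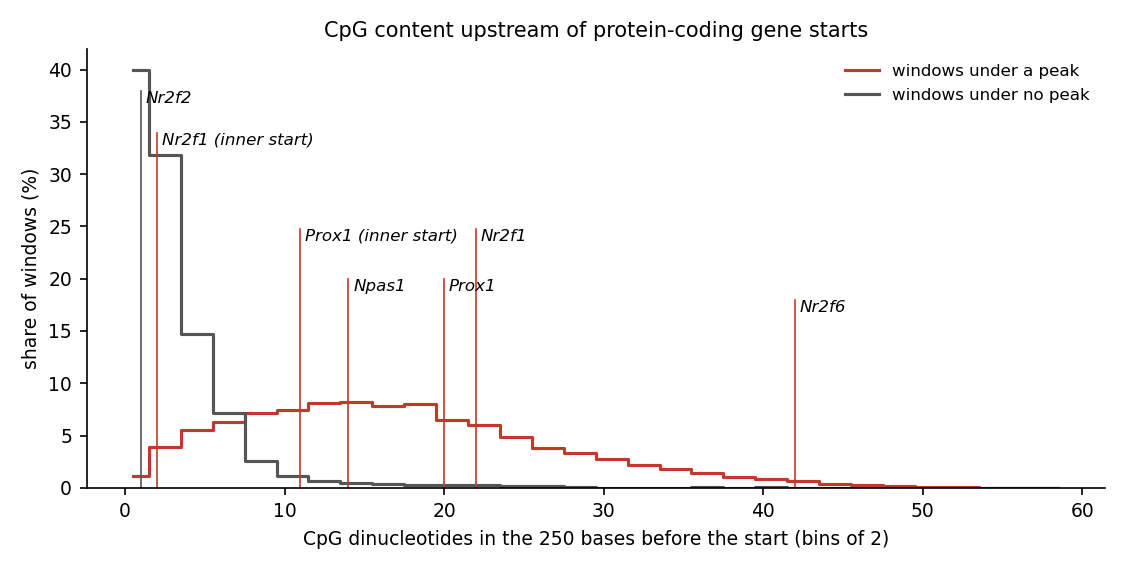
Number of CpG dinucleotides in the 250 bases before a start (x axis, bins of 2) against the share of windows in percent (y axis), for windows of protein-coding genes under a peak (red line) and under no peak (grey line). Vertical lines mark the windows of the named genes, red where under a peak: Nr2f2 stands at 1 CpG with the windows under no peak, and Nr2f6 at 42 CpG.

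Short motifs were then searched in these windows. The GC box was found in the outermost windows of Nr2f1 (1 match), Prox1 (2), Nr2f6 (7) and Npas1 (1). Of the 7 matches at Nr2f6, 5 lie in the printed stretch. A GC box was present in 42.6% of all windows and in 61.4% of those under a peak, which include these windows. In the Nr2f2 window there was no GC box but 2 CCAAT matches, a motif present in 35.4% of windows. TATAAA had 1 match at Prox1 (11.6% of windows, 5.82% of those under a peak). CAGCTG had 1 match at Nr2f6 (12.1% of windows, 11.9% of those under a peak). None of the 7 windows, inner starts included, held TGACAG, the MEIS motif (15.4% of windows), TAATTA, a homeodomain motif of the kind DLX factors bind (4.31%), or the direct repeat of the COUP-TF half-site with a single base between the repeats (0.0423%). All motifs were searched on both strands. They do not contain one another, and GC boxes can overlap, as a pair does at Nr2f6. A match describes letters in the window, and a missing match says nothing of other sites at the locus.

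All 7 genes had a gene-end peak, that is, a peak within 1000 bp of the gene start, or of either end of the span for Htr3a and Calb2, whose strand was not listed. The same held for 65.3% of the 21774 protein-coding genes (64% of those with a listed strand and 70.4% of those judged by either end). Broad peaks covered the starts of Prox1 and Nr2f1. At Prox1 (chromosome 1, 190118035 to 190170827) a peak of 7512 bp ran from 190168257 to 190175769, the widest at any of the 7 loci. At Nr2f1 (chromosome 13, 78188971 to 78198873) a peak of 7206 bp ran from 78197256 to 78204462. These ranked 169 and 186 by width among all peaks. At Nr2f6 (chromosome 8, 71374118 to 71381967) the gene-end peak was 4211 bp wide, from 71378800 to 71383011, and at Npas1 (chromosome 7, 16455721 to 16476822) it was 1501 bp wide.

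At Nr2f2 (chromosome 7, 70351946 to 70366746) the broadest peak lay inside the gene rather than at its outermost start. It was 5629 bp wide, from 70357319 to 70362948. The peaks within 1000 bp of the outermost start were 341 bp wide (70366350 to 70366691) and 1079 bp wide (70364732 to 70365811), and the second of these covered the start of the long non-coding RNA gene B130024G19Rik at 70365383. RefSeq promoter entries list only 1 start for Nr2f2, so whether another start lies under the 5629 bp peak was not tested.

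The gene-end peaks of the marker genes Htr3a and Calb2 were narrower than those of Prox1, Nr2f1, Nr2f6 and Npas1. The same did not hold for Nr2f2, whose gene-end peaks were 341 and 1079 bp wide. The peak at the higher-coordinate end of Htr3a (chromosome 9, 48899213 to 48911152) was 758 bp wide, and that at the higher-coordinate end of Calb2 (chromosome 8, 110142526 to 110168212) was 1010 bp wide. Counting only peaks wider than 4479 bp, the broadest 1% of the list, 3 of the 7 genes (Nr2f1, Nr2f2 and Prox1) had one within 1000 bp of the span, against 3.95% of protein-coding genes. The Nr2f1 locus held a second such peak, of 4738 bp, 3313 bp beyond the far end of the gene.

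**Figure D2:**
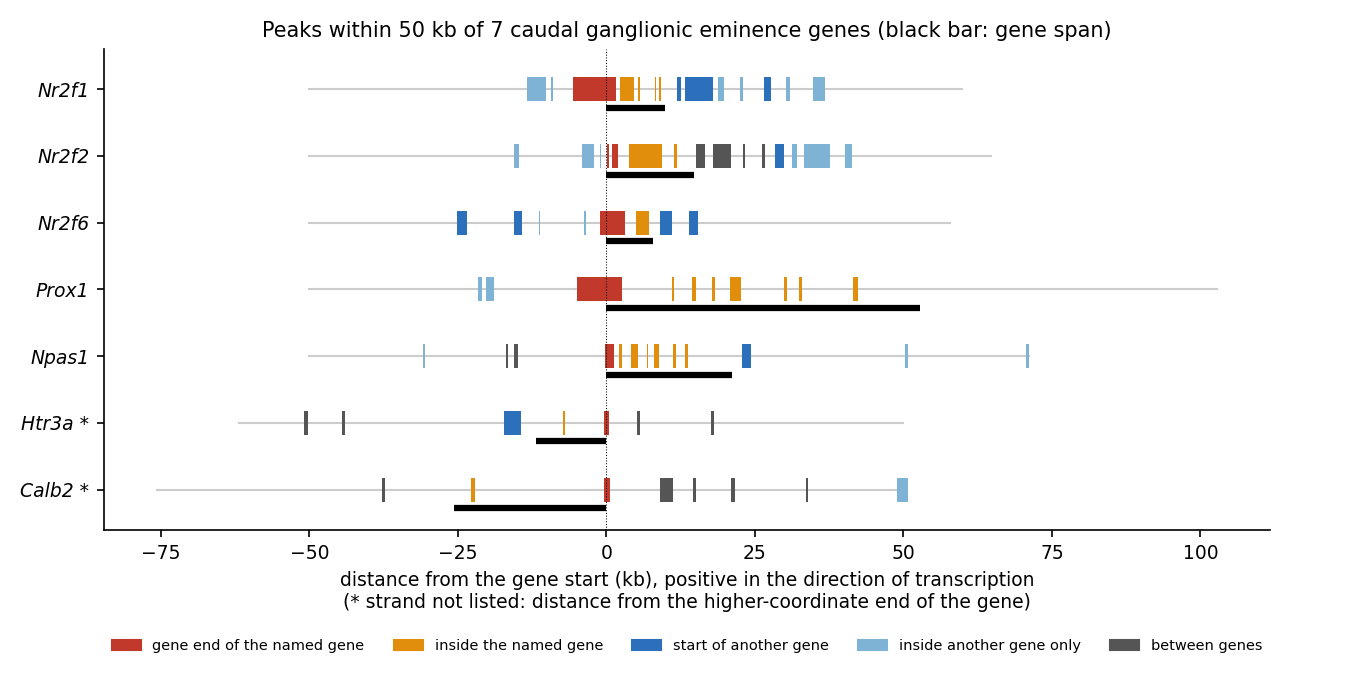
Peaks (boxes, to scale) along the 7 loci, plotted by distance in kb from the gene start in the direction of transcription, or from the higher-coordinate end for Htr3a and Calb2, whose strand is not listed; black bars are gene spans and colours give where a peak lies. The boxes at position 0 of Nr2f1 and Prox1 are 7206 and 7512 bp wide, whereas Nr2f2 has its 5629 bp box inside the gene.

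A long non-coding RNA gene lay across the start of 3 of the 5 genes with a listed strand, against 6.71% of the 17492 protein-coding genes with one. A830082K12Rik (38548 bp) begins on the plus strand 856 bp inside Nr2f1, under the same 7206 bp peak as the Nr2f1 start. B130024G19Rik (45764 bp) begins on the plus strand 1363 bp inside Nr2f2. Prox1os (46984 bp, strand not listed) reaches to 531 bp inside Prox1, also under the 7512 bp peak that covers the Prox1 start. Where 1 peak covers the start of a coding gene and the end of its non-coding neighbour, their accessibility is a single measurement here.

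Peak numbers at the loci ranged from 7 to 15, with a median of 10 against 6 (quartiles 3 and 11) over all protein-coding genes. Nr2f2 had 15 peaks, Nr2f1 14, Npas1 13, Prox1 10, Nr2f6 8, Calb2 8 and Htr3a 7. Each gene was then set beside protein-coding genes of its own length class, 1 of 10 classes of about equal size. All 7 lay above the class median, as did 46.2% of protein-coding genes. The counts depend on the flank: with 10 kb or 100 kb on each side, those of 6 genes, Prox1 excepted, moved by more than 1.5 times under at least one flank. The distance from the class median differed widely among the genes. Nr2f2 had 2.5 times its class median, Npas1 2.17 times and Nr2f1 2 times, and 7.95%, 13.4% and 10.5% of genes in their classes had at least as many peaks. Prox1 had 1.67 times the median (28% of its class had as many or more). Calb2 (1.33 times, 39.7%), Htr3a (1.17 times, 48.8%) and Nr2f6 (1.14 times, 42.7%) were in the middle of their classes. With 50 classes, 51.3% of the Htr3a class had at least as many peaks, and 6 of 7 genes were above their median.

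The length under peaks followed a different order, since peak widths differed. Peaks covered 22.7% of the Nr2f1 locus, 20.7% of the Nr2f2 locus, 12.4% at Nr2f6, 9.54% at Prox1, 7.53% at Npas1, 5.7% at Htr3a and 5.56% at Calb2. The median over protein-coding genes was 4.26%. All 7 were above it, where by definition 50% of genes are. Only 2.09% of protein-coding genes were covered as much as Nr2f1 and 2.92% as much as Nr2f2, whereas 38.7% were covered as much as Htr3a and 39.6% as much as Calb2. Nr2f6, with 8 peaks of a median width of 1549 bp, thus had more of its locus under peaks than Npas1, with 13 peaks of a median width of 575 bp. Over all 75 peaks the median width was 685 bp against 565 bp in the whole list, and 41.3% were wider than 1000 bp against 29%.

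**Figure D3:**
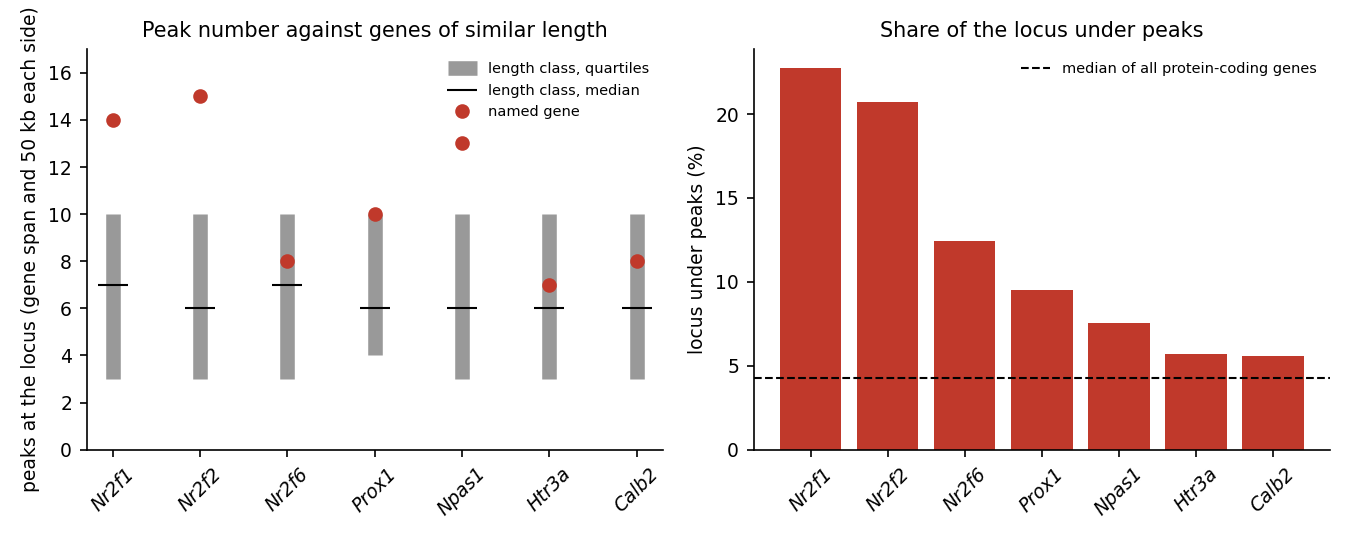
Left, number of peaks at each locus (red points) beside the median (black line) and quartiles (grey bar) of protein-coding genes in the same length class; right, percent of each locus under peaks, with the median of all protein-coding genes as a dashed line. Nr2f1, Nr2f2 and Npas1 lie above the grey bars with 14, 15 and 13 peaks, and coverage falls from 22.7% at Nr2f1 to 5.56% at Calb2.

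Inside the genes themselves the 5 transcription factor genes and the 2 marker genes differed in coverage. Peaks lay over 68.4% of the Nr2f6 span, 51.1% of Nr2f2, 49.5% of Nr2f1, 23.6% of Npas1 and 14.52% of Prox1. The medians of their length classes were 8.8% for Nr2f6 and Nr2f1, 6.52% for Nr2f2, 4.8% for Npas1 and 3.16% for Prox1. Between 0.919% (Nr2f2) and 4.87% (Npas1) of genes in the respective class were covered as much. In contrast, 6.83% of the Htr3a span was under peaks (class median 6.52%) and 3.98% of the Calb2 span (class median 4.07%). With 1 peak list for the whole series this difference between the genes was described and not tested.

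Where the peaks lay also differed by gene. Of the 75 peaks, 8 were gene-end peaks, 22 lay inside the named gene, 10 at the start of another gene (or at either end where its strand is not listed), 20 only inside another gene and 15 between genes. Prox1 had 7 peaks inside the gene beside its gene-end peak and none within 50 kb beyond its far end. The inner peaks were 343 to 1798 bp wide. Upstream, 2 peaks of 1348 and 616 bp lay 18931 and 20982 bp away, inside Prox1os. Npas1 had 6 inner peaks, of 13 to 1134 bp, the 13 bp one being the narrowest at any of the 7 loci. A peak of 685 bp and one of 446 bp lay between Npas1 and Arhgap35, 14844 and 16533 bp upstream. The farthest Npas1 peak, 49443 bp downstream in Zc3h4, was 575 bp wide.

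At the COUP-TF genes many peaks lay beyond the far end of the gene. Nr2f1 had 7 peaks downstream and 2 upstream within 50 kb, and Nr2f2 had 8 and 3. The nearest downstream peak of Nr2f1 lay 2014 bp away, and the other 6 stood in the non-coding genes Gm38604 and 3110006O06Rik. The last of them, 24809 bp away, also lay within the coding gene Fam172a. Upstream, a peak of 3243 bp lay 10198 bp from the gene within A830082K12Rik. Downstream of Nr2f2, a peak of 1621 bp lay 220 bp past the gene, one of 2994 bp 3122 bp past it, one of 1612 bp over the start of Gm29683 and one of 4396 bp 18382 bp away inside Gm29683. A peak of 20 bp, just over 1000 bp upstream of the Nr2f2 start at 1056 bp, missed the gene-end window.

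Nr2f6 lies among closely packed coding genes, and 4 of its 8 peaks were at starts of neighbours. A peak of 2130 bp covered the start of Ocel1, one of 1479 bp the start of Use1, one of 1619 bp the starts of Ankle1 and Gm39193, and one of 1269 bp lay within 1000 bp of the starts of Ushbp1 and Babam1. These peaks count for Nr2f6 only by position. At Npas1 the peak of 1542 bp past its far end covered the start of Tmem160 in the same way. Around Htr3a, the widest peak (2958 bp) covered the start of the non-coding gene Gm32335, which overlaps Htr3a. The 2 peaks between Htr3a and Htr3b, which encodes the partner subunit of the same channel, were 601 and 488 bp wide, and no peak lay within 1000 bp of the listed start of Htr3b. Calb2 had 5 peaks on its higher-coordinate side, of which one of 2201 bp lay 8952 bp away and one of 1899 bp, 48873 bp away, lay in Cmtr2. Only 1 peak (508 bp) lay on the other side.

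The limit of 50 kb decided which peaks were counted. The nearest peaks left out were 50178 bp from Htr3a (1220 bp wide), 50326 bp from Nr2f2 (453 bp wide) and 51866 bp from Npas1 (5239 bp wide, over the start of Zc3h4). At Nr2f1 the next peak was 88381 bp away, and at Prox1 it was 71821 bp away.

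Nr2f1 and Nr2f2 lie in gene-poor regions, and with 500 kb on each side the peaks remained gathered near the genes. The wider Nr2f1 window held 35 peaks and 2 other protein-coding genes, and the Nr2f2 window held 38 peaks and 1, the predicted gene Gm44812. The median protein-coding gene has 16 others in such a window and 47 peaks (quartiles 26 and 72), so 65.1% of genes had at least as many peaks as Nr2f1 and 61.7% as many as Nr2f2. Among the 823 protein-coding genes with at most 2 others in the window the median was 16 peaks (quartiles 4 and 30). Of these, 20.2% had at least as many as Nr2f1 and 16.6% at least as many as Nr2f2.

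Within 50 kb the density was 12.7 peaks per 100 kb at Nr2f1 and 13.1 at Nr2f2. Farther out, from 50 to 500 kb, it was 2.33 and 2.56. The inner part thus held 40% of the Nr2f1 peaks and 39.5% of the Nr2f2 peaks, against a median of 13% over protein-coding genes. At least that share was reached by 3.79% and 3.87% of genes. Long genes make up more of their own window, so this share depends on gene length as well as on neighbours. It was not set beside that of genes with as few neighbours.

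The far peaks stood in different settings at the 2 genes. Of 21 far peaks at Nr2f1, 13 lay only inside another gene, 3 at the start of one and 5 between genes. On the downstream side 7 were inside Fam172a, among them the widest far peak (2883 bp, 294707 bp from Nr2f1), and 1 over its start. On the upstream side 7 peaks lay 378017 to 443529 bp away, 6 of them inside the long non-coding RNA gene Gm32067. Peaks of 2085 bp, over the start of Gm31946, and 2208 bp lay 227564 and 245749 bp upstream. Of 23 far peaks at Nr2f2, 19 lay between genes and none at a start. Downstream there were 15, 4 of them 221304 to 246798 bp away and up to 1635 bp wide, and 8 were upstream. The longest stretches without a peak were 155771 bp in the Nr2f1 window, inside Fam172a, and 163242 bp in the Nr2f2 window, upstream of the gene. Which gene a far peak acts on cannot be read from positions.

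**Figure D4:**
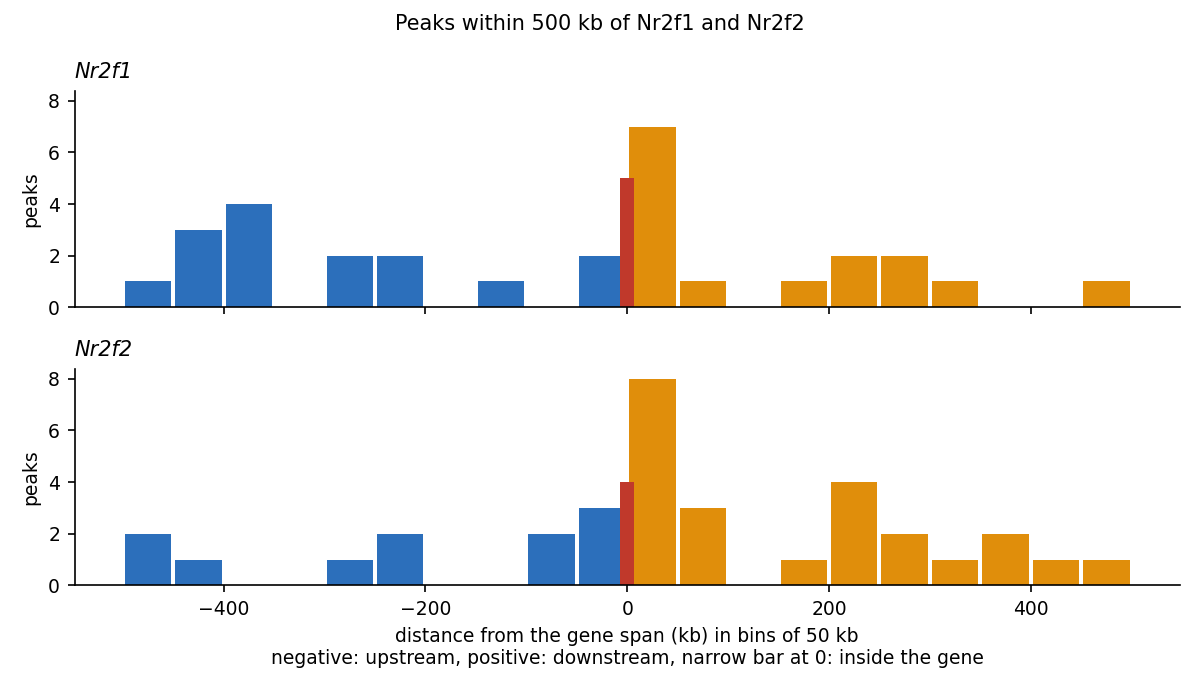
Number of peaks (y axis) in bins of 50 kb by distance from the gene span (x axis, kb) for Nr2f1 (top) and Nr2f2 (bottom), upstream in blue, downstream in orange and inside the gene as a narrow red bar. The first downstream bin is the fullest for both genes, with 7 and 8 peaks, and at Nr2f1 a second group of 4 and 3 peaks stands 350 to 450 kb upstream.

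Related genes gave a scale for each member. Among 9 further nuclear receptor genes close to the COUP-TF genes, 8 had a gene-end peak and 6 lay above their class median. Over all protein-coding genes these shares were 65.3% and 46.2%. Rxra, encoding a retinoid X receptor, had 26 peaks and Rxrb, encoding another, 11. Nr2e1, which encodes the neural stem cell receptor Tlx, had 10, with 19.1% of its locus under peaks. Fewest were found at Hnf4g (2) and Nr2c2 (4). Prox2, the only other Prox gene, also had 10 peaks, but 5.02% of its locus was covered against 9.54% at Prox1. All 5 further bHLH-PAS genes had a gene-end peak, led by the long gene Npas3 with 51 peaks and by Sim2 with 21. Npas4 had 13 and Npas2 and Sim1 9 each.

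Of the 13 serotonin receptor genes other than Htr3a, 11 had a gene-end peak and 3 lay above their class median, where 65.3% and 46.2% of all protein-coding genes did. The median of these 13 genes was 4 peaks, against 6 over all protein-coding genes. Htr6 had 15, Htr1d 10 and Htr3b 8, and Htr2c had 1 and Htr1b 3. Htr3a, with 7, thus ranked 4 of 14. Among 7 other calcium-binding protein genes 6 had a gene-end peak and 5 lay above the class median, with 19 peaks at Calm3 and 10 at Pvalb. Calb1 and S100b had 2 each, against 8 at Calb2.

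Other genes of neurons from the caudal eminence had a lower median coverage than the 7. Of 16 such genes 13 had a gene-end peak, 9 lay above the class median and 1, Nr2e1, had a peak of the broadest 1%. For these 3 counts and those of the lists below, the shares over all protein-coding genes were 65.3%, 46.2% and 3.95%. The median of the 16 genes was 7.5 peaks and 3.43% of the locus. Adarb2, an RNA-editing family gene, had 21 peaks, Reln, encoding reelin, had 16, and Cck and Cxcl14 had 11 each. Vip, the gene of vasoactive intestinal peptide, had 3 and no gene-end peak, and Cnr1, the cannabinoid receptor gene, had 3. In 10 genes of the medial ganglionic eminence, the source of another group of interneurons, the median was 7.5 peaks and 7.02%, with all 10 having a gene-end peak, 6 above the class median and 3 with a peak of the broadest 1%. Sox6 had 37 peaks, Gbx1 14, Pvalb 10 and Lhx6 9, and Sst and Lhx8 had 3 and 4. In 10 genes of the lateral ganglionic eminence and striatum the values were 18.5 peaks and 12.4%, with 10, 8 and 6 genes. Foxp1 had 60, Ebf1 43, Meis2 34 and Bcl11b 32, and Ikzf1 and Sp9 had 6 each. The medians for the 7 genes, 10 peaks and 9.54%, lay between those of the medial and lateral lists. The lists overlap in their ranges, were not tested against each other and differ in gene length, with medians of 14801 bp for the 7 genes, 19760 bp for the other caudal genes, 23233 bp for the medial list and 90856 bp for the lateral list.

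**Figure D5:**
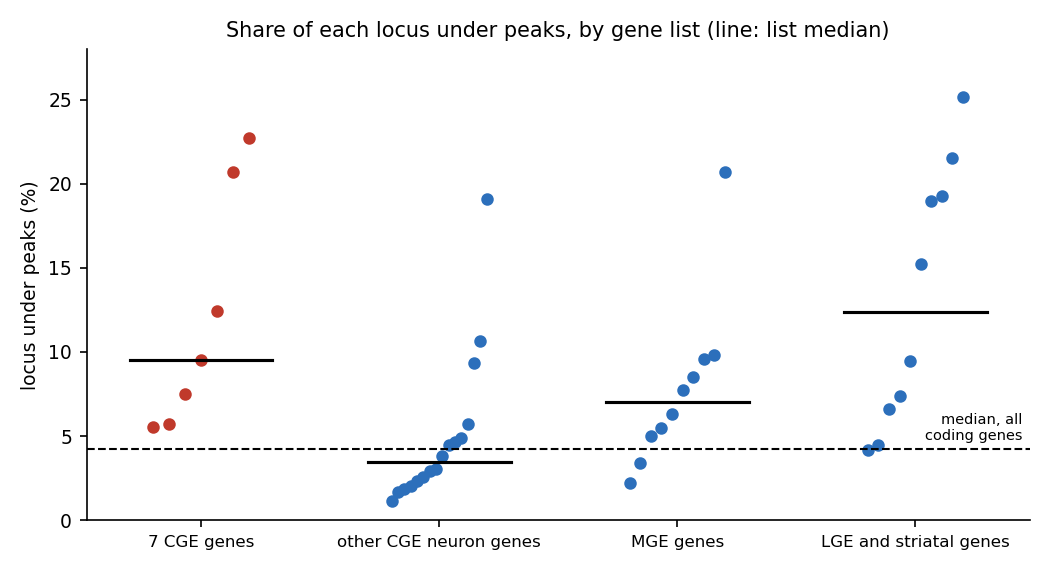
Percent of each locus under peaks (y axis) for the 7 genes (red) and 3 other gene lists (blue), 1 point per gene, with list medians as solid lines and the median of all protein-coding genes dashed. CGE, MGE and LGE are the caudal, medial and lateral ganglionic eminences; list medians are 9.54, 3.43, 7.02 and 12.4%, and all ranges overlap.

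The labelled tissue was checked against markers of cells the dissection could hold. All 8 genes of ganglionic eminence and striatal neurons, Dlx1, Dlx2, Dlx5, Dlx6, Gad1, Gad2, Meis2 and Bcl11b, had a gene-end peak and a peak of the broadest 1%, against 65.3% and 3.95% of protein-coding genes. Dlx1 and Dlx2 share their widest peak, as do Dlx5 and Dlx6, so 6 distinct peaks stand behind these 8 genes. All 7 genes of cortical excitatory cells had a gene-end peak and 1, Emx2, had a peak of the broadest 1%. Gene-end peaks were present at 3 of 4 endothelial genes, 2 of 4 microglial genes and 0 of 4 erythroid genes, and none of these 12 genes had a peak of the broadest 1%. With numbers this small, the endothelial and microglial counts cannot be set apart from the 65.3% of all protein-coding genes. The other lists are also small, and their counts were not tested. Gene-end peaks stood at every gene of both the ganglionic eminence and the cortical list, so they do not tell these lists apart. By peak number the order differed: 4 of 4 endothelial, 3 of 4 microglial and 1 of 4 erythroid genes lay above their class median, against 6 of 8 ganglionic eminence and 4 of 7 cortical genes and 46.2% of protein-coding genes. For the very short genes Cldn5 (endothelial, 4 peaks) and Hba-a1 (the erythroid gene counted, 8 peaks) the class median was 0. Any peak would have placed them above it. The median was 10 peaks at the endothelial genes, the same as at the 7 caudal genes, and 9.5 at the microglial genes. Nr2f1, Nr2f2 and Prox1 are also known from cortical and vessel cells, whose part in the peaks described here was not tested.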

How the data were processed

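The authors deposited 1 list of peak positions for the series. Per the submitters' processing notes, the tools were Signac and Cell Ranger ATAC 1.2.0, whose roles are not given, with build mm10. Peak caller, pooling of libraries and doublet treatment are not given in the sources used here. Neighbouring peaks lay at least 501 bp apart, so joined regions may lower counts. The files do not say whether starts count from 0, so a start may be shifted by 1 base. The 7 genes and all lists were chosen with earlier results of these data known.

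Gene spans came from RefSeq (GRCm38.p6). Of 49997 entries 402, on scaffolds, off the main chromosomes or repeated, were left out, leaving 49595 genes, 21774 protein-coding. Strand came from RefSeq promoter entries, found for 17492 coding genes; for the other 4282 either end counted as start. Peaks were counted with Python 3.11.15, numpy 2.4.6 and pandas 2.3.3, and counting was tested on simulated data. Named were all 7 genes, with their widest, gene-end, nearest and farthest peaks and neighbours, and from each list up to 4 genes with most and 2 with fewest peaks. Others singled out (Nr2e1, Emx2, single far peaks) were chosen after their values were seen. Protein sequences, planned for the COUP-TF genes, were not analysed here, and 1 listed gene is not reported by name.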

Additional observations from a re-analysis of the deposited data

How the results depend on the processing

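Counting depended mostly on the flank and on a cut at the median width, which by definition takes many peaks out of the list. Leaving out only peaks under 20 bp gave 74 peaks at the 7 loci. With a flank of 10 kb the 7 loci held 46 peaks and 24.2% of their length was under peaks, against 75 and 11.8%. With a flank of 100 kb 8.73% was covered, and Htr3a, with 12 peaks, no longer exceeded its class median of 12, while the other 6 genes exceeded theirs. Keeping only peaks wider than the median width left 48 peaks at the 7 loci (10.6% covered), 23 within 500 kb of Nr2f1 and 22 within 500 kb of Nr2f2. With 250 kb the Nr2f1 count was 21. By peak midpoint 4 of 7 genes had a gene-end peak, since midpoints of broad peaks lie farther from the start. Of 27 recomputed summary values 20 stayed within 1.5 times, covered length with 100 kb and with wider peaks included. Of 35 recomputed counts at single loci, 13 moved by more. Calb2 went from 8 peaks to 3 (10 kb), 13 (100 kb) or 5 (wider peaks only), and Htr3a from 7 to 4, 12 or 4. Npas1 went from 13 to 8 (10 kb) or 7 (wider peaks only). Nr2f6 went from 8 to 5 (10 kb) or 13 (100 kb), Nr2f1 from 14 to 9 under 10 kb and wider peaks alike, and Nr2f2 from 15 to 9 (10 kb). The order of the 7 genes by peak number thus holds for the 50 kb flank. With 10 kb all 7 exceeded their class medians, which were only 2 or 3 peaks. Starts at either end, or at any listed start, were alternatives chosen after seeing the data, and left 7 of 7 with a gene-end peak. Shares over all protein-coding genes are not given for these other flanks, starts and the midpoint rule, so these counts have no scale beside them. Leaving out a library could not be done because the list names none. No paired analysis was possible because there is 1 group and 1 peak list for the whole series. Depth is unknown, so weak peaks may be missing.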
